A study of Homo sapiens with 8 samples.

Results

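The surface molecules that let a tissue cell hold or restrain leukocytes were followed as a set of 9 genes, namely the adhesion molecules ICAM1 and VCAM1, the costimulatory receptor CD40, the B7 family ligands CD274 (PD-L1), PDCD1LG2 (PD-L2) and CD276 (B7-H3), the checkpoint ligands LGALS9 (galectin-9) and PVR (CD155), and the ecto-enzyme NT5E (CD73). The genes were chosen by symbol, and each had 1 row among the 60558 genes with values. All 9 were among the 14206 genes with at least 1 FPKM (fragments mapped to a gene, scaled to transcript length and to the fragments mapped in the library) in at least 2 libraries, the minimum set for testing.

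The study derived human intestinal epithelial cells in 2 dimensions (hIECs) from the established embryonic stem cell line H9, which is human, and sequenced 8 poly-A selected libraries, 2 in each of 4 groups. Normal hIECs (NT) were left untreated, normal hIECs with PM10 (PM10) received particulate matter of the PM10 class at 100 μg/ml during the final 7 days, inflamed hIECs (IT) received IFNγ and TNFα, each at 50 ng/ml and over 10 days, and inflamed hIECs with PM10 (IT-PM10) received both. Every group was grown in the same differentiation medium, which held EGF, the Wnt inhibitor Wnt-C59 and valproic acid, and the sample labels give 10 days of treatment for all of them. All libraries come from 1 cell line, and no source used here says whether the libraries of a group were separate cultures, so the p-values measure only the spread between these libraries, which may be technical.

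Adhesion molecules and checkpoint ligands act at the contact between a tissue cell and a leukocyte. ICAM1 and VCAM1 bind leukocyte integrins and hold the leukocyte in place, and CD40 passes the signal of CD40LG on activated T cells into the cell that carries it. PD-L1 and PD-L2 bind PD-1 on T cells and restrain them, CD155 binds receptors on natural killer and T cells, and CD73 makes adenosine, which dampens immune cells, from AMP. IFNγ acts through factors such as IRF1 and TNFα through NF-κB, and genes of this kind are known targets of these pathways.

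The labelled cell type was checked against markers. Of 13 epithelial markers, VIL1, CDX2, MUC2, LYZ and CHGA were listed at 0 in all 8 libraries, CDH1 was listed at 0 in 7 of them, and EPCAM reached at most 0.622 FPKM, whereas the keratins KRT8 and KRT18 lay between 100 and 383 FPKM, SOX9 between 3.66 and 15 and LGR5 between 2.01 and 8.28. All 12 mesenchymal markers were tested, and their summed level was 4837 to 6329 FPKM, with VIM alone between 718 and 973. Of the 13 epithelial markers, 8 thus stayed under 1 FPKM in every library while mesenchymal genes were abundant, so the name hIECs is used here as a label only. The endothelial markers PECAM1, CDH5, VWF, KDR and CLDN5 were listed at 0 in every library. The sum of all 8 endothelial markers, nearly all of it EGFL7, was 29.1 to 31.7 FPKM without and 12.1 to 12.7 with cytokines. The summed level of 11 leukocyte markers, of which 8 were listed at 0 in every library, was 0.253 to 2.16 FPKM. The mesenchymal sum was 5410 and 5458 FPKM in normal hIECs and 6258 and 6329 in inflamed hIECs, and the epithelial sum was 659 and 668 against 356 and 361. Neither list moved as one. By the limma call defined below, 6 of the 12 mesenchymal markers were higher in inflamed hIECs and 4 lower, COL3A1 and PDGFRA among the lower. Of 5 epithelial markers tested, 3 were lower, KRT8 and KRT18 among them, and LGR5 was higher. Over all genes tested, 25.9% were called higher in this comparison and 30.3% lower. The part of such shifts in the results below was not tested. In bulk RNA, a change in the number of cells that carry a transcript and a change in transcript per cell cannot be told apart.

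Values above 0 started at 0.1636 to 0.2285 FPKM, depending on the library, and 27 to 43 genes shared that lowest value. The read counts behind the values are unknown. Differences are given on the log2(FPKM + 1) scale, which understates changes of weakly expressed genes, together with ratios of mean FPKM. The smallest two-sided p-value that an exact permutation of 2 libraries against 2 allows is 0.333, so the tests come from limma, which fits all genes together, and a gene is called where its adjusted p-value lies under 0.05.

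The sequence just before the RefSeq transcription start was read for the genes present in the promoter table used here (GRCh38.p14), which held 7 of the 9 genes, all but CD40 and PDCD1LG2. In all, 6 motifs were searched on both strands of the 250 bases before the start, in these genes and in all 35116 entries of the table. They were the IFNγ-activated site GAS (TTCNNNGAA), an interferon-response site ISRE (GAAANNGAAA), an NF-κB-like consensus kB (GGNNNTTCC), the core xenobiotic element XRE (GCGTG), the core antioxidant element ARE (TGACNNNGC) and the TATA box (TATAA). The windows of ICAM1, VCAM1, CD274 and NT5E are shown because ICAM1 and CD274 held both a GAS and a kB match, VCAM1 an ISRE and a kB match, and NT5E was the gene whose response to PM10 turned with the inflamed state. Capitals mark the motif matches, and each sequence is read 5′ to 3′ on the plus strand, which is the strand of all 4 genes.
ICAM1 at chr19:10270870-10271119: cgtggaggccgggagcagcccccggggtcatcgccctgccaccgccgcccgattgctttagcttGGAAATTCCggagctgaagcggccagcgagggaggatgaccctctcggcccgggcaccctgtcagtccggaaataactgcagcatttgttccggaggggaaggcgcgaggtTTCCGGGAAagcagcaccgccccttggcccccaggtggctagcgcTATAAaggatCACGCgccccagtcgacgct
VCAM1 at chr1:100719492-100719741: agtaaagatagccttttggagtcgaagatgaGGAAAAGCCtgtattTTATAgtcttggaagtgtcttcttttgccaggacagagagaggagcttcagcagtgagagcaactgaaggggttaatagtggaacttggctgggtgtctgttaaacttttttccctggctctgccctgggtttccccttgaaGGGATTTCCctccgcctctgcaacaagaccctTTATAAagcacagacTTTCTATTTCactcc
CD274 at chr9:5450292-5450541: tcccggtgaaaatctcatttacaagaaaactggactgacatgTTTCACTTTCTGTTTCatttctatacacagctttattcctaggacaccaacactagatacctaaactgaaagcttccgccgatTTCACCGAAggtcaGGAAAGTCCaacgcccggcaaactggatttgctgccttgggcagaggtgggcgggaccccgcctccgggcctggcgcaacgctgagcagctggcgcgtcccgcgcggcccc
NT5E at chr6:85449833-85450082: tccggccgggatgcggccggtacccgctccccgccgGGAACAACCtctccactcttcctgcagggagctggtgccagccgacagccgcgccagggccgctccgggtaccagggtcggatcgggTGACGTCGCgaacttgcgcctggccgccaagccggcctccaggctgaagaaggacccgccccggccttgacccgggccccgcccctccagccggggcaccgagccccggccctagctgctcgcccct

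In ICAM1 the GAS match started at position -75 from the transcription start and the kB match, found on both strands, at -186, and XRE and TATA matches started at -20 and -30. In CD274 the GAS match started at -125 and the kB match at -111, and the 2 ISRE matches at -208 and -202 overlapped. VCAM1 held kB matches at -62 and -219 an ISRE match at -15 and TATA matches at -29, -30 and -204, the first pair overlapping, and NT5E held a kB match at -214 and an ARE match at -127. Among all windows of this length, 6.57% held a GAS, 3.02% an ISRE, 17.1% a kB, 32.2% an XRE, 10.9% an ARE and 18.9% a TATA match. Of the other windows, 1 of the 2 listed for CD276 held a kB match, and the second and those of LGALS9 and PVR held none of the motifs. RefSeq and GENCODE starts can differ, and by the GENCODE positions the windows of NT5E, CD276 and LGALS9 lay inside the gene. For LGALS9 the window began at 27630938 and the gene at 27629798. Sequence before the GENCODE starts of NT5E, CD276 and LGALS9 was not searched. The windows of ICAM1, CD274 and PVR began before the gene and ended inside it. All match positions are counted from the RefSeq start. A match of letters is a description and does not show that a factor binds there.

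In untreated normal hIECs the 9 genes covered a wide range of levels. CD276 was highest at 72.7 ± 4.7 FPKM (SD, n = 2 libraries), followed by VCAM1 at 30.5 ± 4.5. NT5E at 12.3 ± 1.8 and CD40 at 12.3 ± 0.64 came next, and their ranges overlapped. PVR had 6.95 ± 1.3 FPKM, ICAM1 2.11 ± 0.095 and CD274 1.15 ± 0.024. LGALS9 and PDCD1LG2 were lowest, with 0.504 ± 0.28 and 0.427 ± 0.061 FPKM, and their ranges overlapped. Both lay close to the lowest value above 0 in a library, so ratios taken against them are imprecise. FPKM is scaled to transcript length, so these levels can be set side by side between genes.

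**Figure D1:**
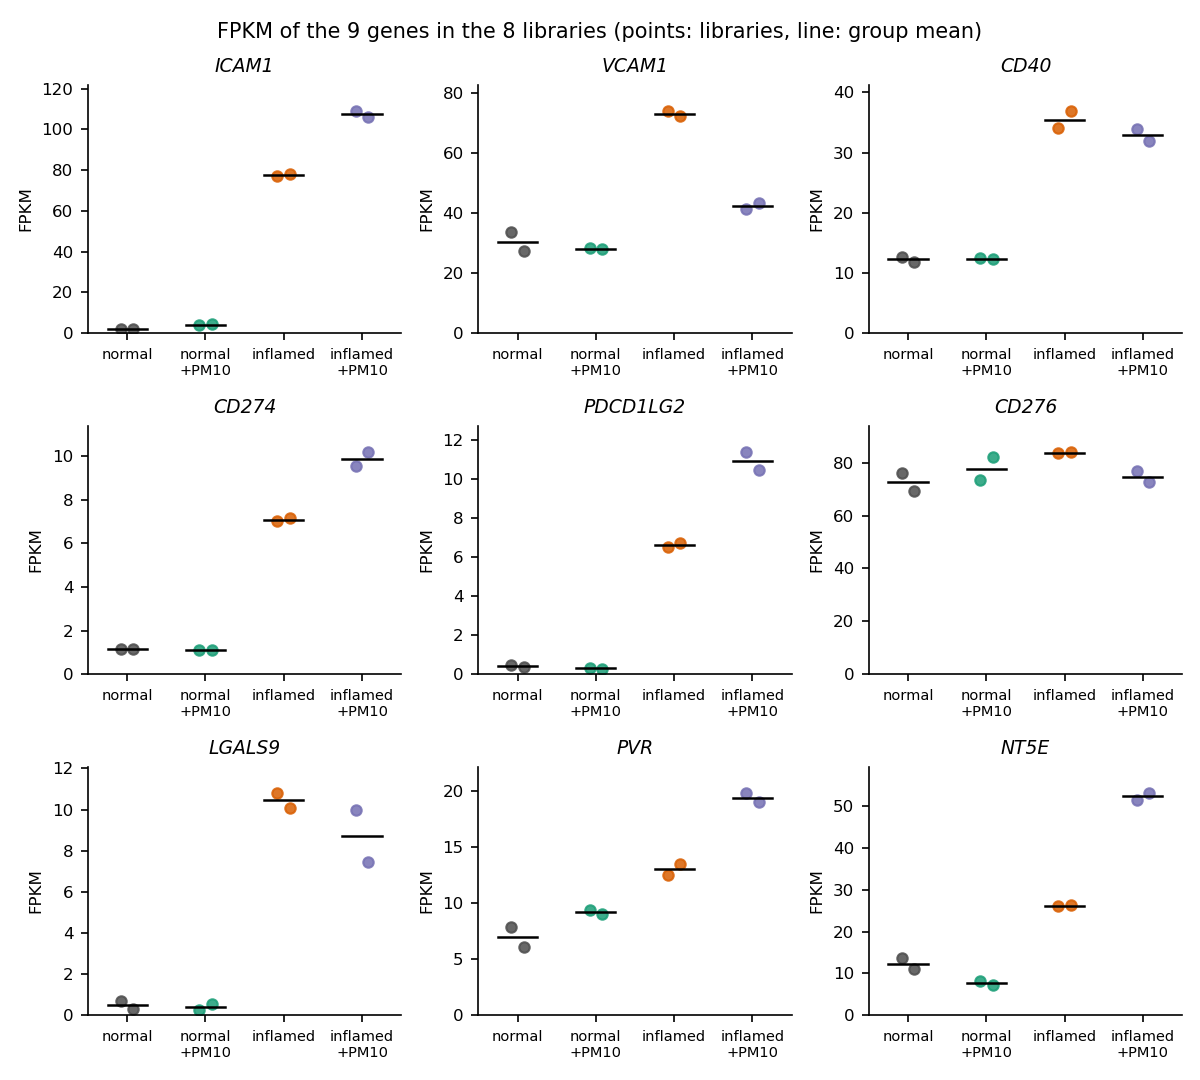
FPKM (linear axis, its own scale in each panel) of the 9 genes in normal and inflamed hIECs, each without and with PM10. Points are the 2 libraries of a group and lines are group means. ICAM1 rose from about 2 FPKM to between 77.3 and 109 with cytokines, VCAM1 was highest in inflamed hIECs without PM10, and NT5E was lowest in normal hIECs with PM10 and highest in inflamed hIECs with PM10.

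To determine how the inflammatory cytokines changed these genes, inflamed hIECs were compared with normal hIECs, both without PM10. All 9 genes were called higher by limma, where 25.9% of the 14206 genes tested were called higher, 30.3% lower and 56.2% in either direction. PDCD1LG2 and LGALS9 had reached the minimum for testing only through the cytokine libraries, so they had to differ here, and the count without them was 7 of 7. The 9 log2 differences ran from 0.20 to 4.66 with a median of 1.46, against a median of -0.03 over all genes tested. The calls of 8 of the 9 genes held in each of the 18 alternatives tried, and the exception was CD276.

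Among the adhesion molecules, ICAM1 (ENSG00000090339, chromosome 19, 10271093 to 10286615, 7 exons), the ligand of the leukocyte integrins LFA-1 and Mac-1, changed most. It had 2.17 and 2.04 FPKM in normal hIECs and 77.3 and 78.2 in inflamed hIECs. The inflamed libraries lay far above the normal ones, a 36.9-fold ratio of means and a log2 difference of 4.66 (standard error 0.061, limma adjusted p = 5.51e-09). Exons of the antisense gene ICAM4-AS1 cover 23.6% of the exon bases of ICAM1, and without strand information their reads cannot be told apart. ICAM4-AS1 itself was listed at 0.348 FPKM at most, though reads of the shared bases may have been counted to ICAM1.

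VCAM1 (ENSG00000162692, chromosome 1, 100719742 to 100739045, 9 exons), the ligand of the integrin of ITGA4 and ITGB1, started from a higher level and had a smaller difference. It had 33.6 and 27.3 FPKM in normal hIECs and 74.0 and 72.4 in inflamed hIECs, with no overlap. The ratio was 2.4-fold and the log2 difference 1.25 (standard error 0.088, limma adjusted p = 2.29e-05). ICAM1, far below VCAM1 in normal hIECs, lay above it in both inflamed libraries.

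CD40 (ENSG00000101017, chromosome 20, 46118271 to 46129863, 9 exons) had 12.7 and 11.8 FPKM in normal hIECs and 34.1 and 36.9 in inflamed hIECs. This was a 2.89-fold ratio and a log2 difference of 1.46 (standard error 0.063, limma adjusted p = 1.89e-06). The transcript of its ligand, CD40LG, was listed at 0 in all 8 libraries.

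The 2 PD-1 ligands, whose genes lie side by side on chromosome 9 with 39965 bases between them, rose together. CD274 (ENSG00000120217, 5450503 to 5470566, 7 exons) went from 1.16 and 1.13 FPKM to 7.05 and 7.15, a 6.19-fold ratio and a log2 difference of 1.92 (standard error 0.067, limma adjusted p = 6.88e-07). PDCD1LG2 (ENSG00000197646, 5510531 to 5571282, 7 exons) went from 0.470 and 0.384 FPKM to 6.54 and 6.74, a log2 difference of 2.42 (standard error 0.079, limma adjusted p = 4.96e-07). Its ratio of means was 15.6-fold, taken against values near the lowest a library could hold. Both genes came to a similar level in inflamed hIECs, where the level of PDCD1LG2 was 0.928 and 0.944 times that of CD274, against 0.404 and 0.340 times in normal hIECs.

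CD276 (ENSG00000103855, chromosome 15, 73683966 to 73714514, 10 exons), a B7 family member with no settled receptor, had the smallest difference. It had 76.1 and 69.4 FPKM in normal hIECs and 83.6 and 84.0 in inflamed hIECs, a 1.15-fold ratio and a log2 difference of 0.20 (standard error 0.07, limma adjusted p = 0.0389). The call was lost in 9 of 18 alternatives, among them those without the second normal library (log2 difference 0.14, limma adjusted p = 0.16), without either inflamed library (limma adjusted p = 0.118 and 0.127) and without either inflamed PM10 library (limma adjusted p = 0.0567 in both). Of the summed FPKM of the 3 B7 ligands, CD276 made up 97.9% in both normal libraries and 86.0% and 85.8% in the inflamed ones.

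LGALS9 (ENSG00000168961, chromosome 17, 27629798 to 27649560, 11 exons), a galectin that binds TIM-3 among other receptors, had 0.706 and 0.303 FPKM in normal hIECs and 10.8 and 10.1 in inflamed hIECs. The groups were far apart, with a log2 difference of 2.94 (standard error 0.18, limma adjusted p = 1.02e-05), the largest after ICAM1. Its near-identical copies LGALS9B and LGALS9C were listed at 0 in all libraries, so reads that fit more than 1 copy may have been counted to LGALS9. LGALS9 also shares 294 exon bases, 5.15% of its own, on the same strand with ENSG00000266728, which was listed at 0 FPKM.

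PVR (ENSG00000073008, chromosome 19, 44643798 to 44666162, 8 exons), the ligand of CD226 and TIGIT, rose from 7.85 and 6.05 FPKM to 12.5 and 13.5. The ratio was 1.87-fold and the log2 difference 0.82 (standard error 0.1, limma adjusted p = 0.000418). It shares 121 exon bases with CEACAM19, which had at most 3.44 FPKM. A larger part, 2028 exon bases or 19.4% of its own, is shared on the same strand with ENSG00000279095, which was listed at 0 FPKM.

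NT5E (ENSG00000135318, chromosome 6, 85449584 to 85495791, 9 exons) rose from 13.6 and 11.1 FPKM to 26.1 and 26.3. The ratio was 2.13-fold and the log2 difference 1.04 (standard error 0.094, limma adjusted p = 7.99e-05).

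The same question was asked of cells under PM10, in the other 4 libraries, which share the estimate of the spread with the first comparison, by setting inflamed hIECs with PM10 against normal hIECs with PM10. Of the 9 genes, 8 were called higher, where 25.8% of all genes tested were called higher, 39.6% lower and 65.4% in either direction. Again PDCD1LG2 and LGALS9 were tested only because of their cytokine libraries, and without them the count was 6 of 7. The log2 differences of these 8 were 4.46 for ICAM1, 3.20 for PDCD1LG2, 2.81 for LGALS9, 2.63 for NT5E, 2.37 for CD274, 1.35 for CD40, 1.00 for PVR and 0.58 for VCAM1 (limma adjusted p between 7.23e-09 and 0.000842), and each call held in all 18 alternatives. CD276 did not pass the threshold, with a log2 difference of -0.06 (95% interval -0.22 to 0.11, limma adjusted p = 0.496). NT5E differed 6.84-fold here, from 8.10 and 7.22 FPKM to 51.6 and 53.2. VCAM1 differed 1.51-fold, from 28.2 and 27.9 FPKM to 41.5 and 43.2.

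**Figure D2:**
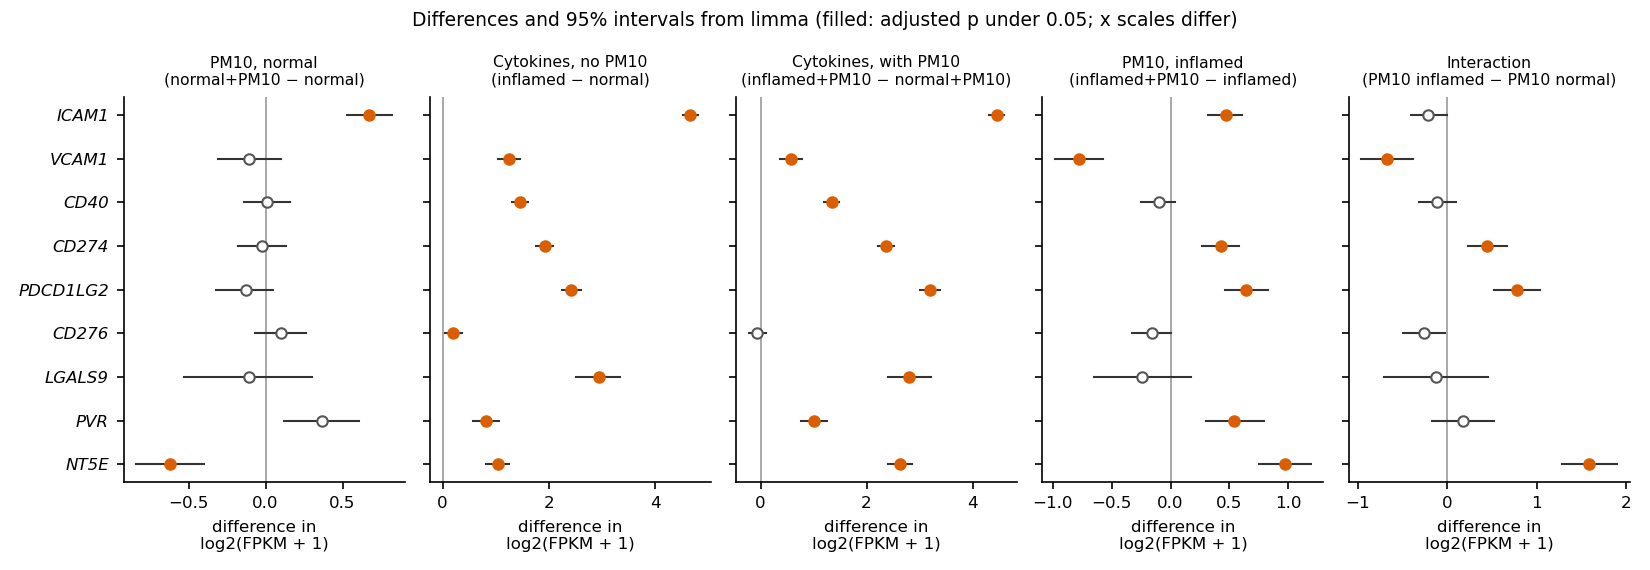
Differences in log2(FPKM + 1) with 95% intervals from limma for the 9 genes in the 5 comparisons (x axis, with its own scale in each panel). Filled points passed an adjusted p of 0.05 and open points did not. With cytokines alone all 9 genes lay above 0, and with PM10 the genes split, from -0.78 for VCAM1 to 0.97 for NT5E in inflamed hIECs.

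To assess what PM10 did to these genes in normal hIECs, normal hIECs with PM10 were compared with normal hIECs. limma called 1 gene higher and 1 lower, where 9.23% of all genes tested were called, 5.51% higher and 3.72% lower. The split of all calls depended on scaling, with 59.7% higher as deposited, 42.9% under median centring and 75.4% after rescaling without mitochondrial genes. With only the 4 libraries of these groups in the fit, limma called 23 genes in place of 1311 and 0 of the 9, of which 3 had an unadjusted p under 0.05 in that fit.

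ICAM1 rose from 2.17 and 2.04 FPKM to 3.72 and 4.19, a 1.88-fold ratio and a log2 difference of 0.67 (standard error 0.061, limma adjusted p = 0.00227). The call was lost with only these groups in the fit (limma adjusted p = 0.0941) and held in the other 17 alternatives. This change was small beside the one with cytokines, as all 4 libraries without cytokines had ICAM1 under 5 FPKM.

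NT5E fell from 13.6 and 11.1 FPKM to 8.10 and 7.22, a ratio of 0.621 and a log2 difference of -0.62 (standard error 0.094, limma adjusted p = 0.0122). The call was lost without the first or the second PM10 library (log2 difference -0.69 and -0.54, limma adjusted p = 0.0523 and 0.0814) and with only these groups in the fit (limma adjusted p = 0.132). The mesenchymal sum was also lower with PM10, at 4837 and 4851 FPKM against 5458 and 5410, with ACTA2, TAGLN and VIM called lower and LUM and POSTN higher among the 12, and its part in the result was not tested.

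PVR had 9.34 and 9.01 FPKM with PM10, above both normal libraries, and did not pass the threshold (log2 difference 0.37, 95% interval 0.12 to 0.61, limma adjusted p = 0.0692). It was called without the first normal library (log2 difference 0.53, limma adjusted p = 0.00924), at a stricter minimum of 5 FPKM (limma adjusted p = 0.0499) and after rescaling without mitochondrial genes (limma adjusted p = 0.0422). The other 6 genes had log2 differences between -0.13 and 0.10 and were not called. For CD274 the 95% interval was -0.18 to 0.13 and for CD40 it was -0.14 to 0.16, so a change by more than about 0.2 on this scale lies outside both. For VCAM1 the value rested on the normal libraries, being -0.25 and called without the second (limma adjusted p = 0.0403) and 0.037 without the first.

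In inflamed hIECs, where the study asked whether PM10 acts differently, the genes split. Comparing inflamed hIECs with PM10 with inflamed hIECs, limma called 5 of the 9 genes higher and 1 lower, where 15.2% of all genes tested were called, 6.22% higher and 9.02% lower. Of the calls over all genes 40.8% were higher as deposited, against 50.8% under quantile normalization and 50% after rescaling without mitochondrial genes. The 9 genes had a median log2 difference of 0.43, against -0.01 over all genes tested. The calls of ICAM1, VCAM1, PDCD1LG2 and NT5E held in all 18 alternatives.

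The adhesion molecules moved in opposite directions. ICAM1 rose further, from 77.3 and 78.2 FPKM to 109 and 106, a 1.39-fold ratio and a log2 difference of 0.47 (standard error 0.061, limma adjusted p = 0.00379). VCAM1 fell from 74.0 and 72.4 FPKM to 41.5 and 43.2, a ratio of 0.578 and a log2 difference of -0.78 (standard error 0.088, limma adjusted p = 0.00218). With PM10, VCAM1 thus lay between the normal and the inflamed level, without overlap with either group. Summed mesenchymal markers were also lower with PM10 (5628 and 5636 FPKM against 6258 and 6329), and 6 of the 12 were called lower and 1 higher. The leukocyte sum was 1.34 and 2.16 FPKM with PM10 against 0.399 and 0.333, most of it CD68. CD68 had 1.11 and 1.83 FPKM against 0.399 and 0.333 (log2 difference 0.84, limma adjusted p = 0.021, interaction 1.24, limma adjusted p = 0.0319). It reached the minimum for testing only through the inflamed PM10 libraries, so it had to differ there. ITGB2 had 0.223 and 0.327 FPKM with PM10 against 0 in inflamed hIECs. CD14 and CSF1R were listed at 0 in all 8 libraries. PTPRC was listed at 0 in every library with cytokines, and had 0.524 and 0.345 FPKM in normal hIECs and 0.31 and 0.253 in normal hIECs with PM10. The part of these shifts in the results of this comparison and of the interaction was not tested.

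Both PD-1 ligands rose. CD274 went from 7.05 and 7.15 FPKM to 9.55 and 10.2, a 1.39-fold ratio and a log2 difference of 0.43 (standard error 0.067, limma adjusted p = 0.00783). This call was lost without the first or second inflamed library (log2 difference 0.42 and 0.44, limma adjusted p = 0.0599 and 0.0541) and without the second inflamed PM10 library (0.38, limma adjusted p = 0.0638). PDCD1LG2 went from 6.54 and 6.74 FPKM to 11.4 and 10.5, a 1.65-fold ratio and a log2 difference of 0.64 (standard error 0.079, limma adjusted p = 0.00295). Its level was then 1.2 and 1.02 times that of CD274. CD276 had 76.7 and 72.7 FPKM, below both inflamed libraries, and did not pass the threshold (log2 difference -0.16, 95% interval -0.33 to -0.00, limma adjusted p = 0.151). Of the summed FPKM of the B7 ligands, CD276 made up 78.5% and 77.8% in inflamed hIECs with PM10.

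NT5E had the largest rise among the 9 genes, from 26.1 and 26.3 FPKM to 51.6 and 53.2, a 2.00-fold ratio and a log2 difference of 0.97 (standard error 0.094, limma adjusted p = 0.00131). PVR rose from 12.5 and 13.5 FPKM to 19.8 and 19, a 1.49-fold ratio and a log2 difference of 0.54 (standard error 0.1, limma adjusted p = 0.0157). The PVR call was lost when any one of these libraries was left out (log2 difference 0.49, 0.60, 0.52 and 0.57, limma adjusted p = 0.0945, 0.061, 0.0917 and 0.0722 without the first and second inflamed and the first and second inflamed PM10 library).

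CD40 and LGALS9 did not pass the threshold. CD40 had 34.0 and 32.0 FPKM with PM10 (log2 difference -0.10, 95% interval -0.25 to 0.04, limma adjusted p = 0.301). LGALS9 had 10.0 and 7.46 FPKM, and its interval was wide (log2 difference -0.24, 95% interval -0.65 to 0.17, limma adjusted p = 0.384).

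Whether PM10 acted differently on inflamed than on normal hIECs was tested as the interaction of PM10 and cytokines, which was called for 4 of the 9 genes, where 6.6% of all genes tested were called, 2.11% higher and 4.48% lower. Under median centring 45.7% of those calls over all genes were higher, against 32% as deposited. Without 1 of the 6 libraries outside normal hIECs, the count fell to 1 or 2 of the 9. NT5E had the largest interaction, 1.59 on the log2 scale (standard error 0.13, limma adjusted p = 0.00171), since it fell with PM10 in normal hIECs and rose in inflamed hIECs. This call held in all 17 alternatives, with values between 1.45 and 1.73. The interaction of PDCD1LG2 was 0.78 (standard error 0.11, limma adjusted p = 0.011) and was lost without the first inflamed library (0.76, limma adjusted p = 0.0569) or the first inflamed PM10 library (0.72, limma adjusted p = 0.0561).

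The interaction of VCAM1 was -0.67 (standard error 0.12, limma adjusted p = 0.0268). It was lost when any of the 6 libraries outside normal hIECs was left out, with values between -0.70 and -0.64 and limma adjusted p-values between 0.0816 and 0.0957. The interaction of CD274 was 0.45 (standard error 0.095, limma adjusted p = 0.0374) and was lost in 9 of 17 alternatives, namely without any of the same 6 libraries (0.40 to 0.50, limma adjusted p = 0.0886 to 0.131), at a pseudocount of 0.1, with no filter and with a replicate block. ICAM1 rose with PM10 in both states, and its interaction of -0.21 was not called (95% interval -0.41 to -0.00, limma adjusted p = 0.205). The interactions of CD40, CD276, LGALS9 and PVR were not called either, with values between -0.26 and 0.18.

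Order among the genes also changed over the groups. In inflamed hIECs CD276, ICAM1 and VCAM1 held 83.8, 77.8 and 73.2 FPKM on average, with no overlap between neighbours, followed by CD40 at 35.5 and NT5E at 26.2. In inflamed hIECs with PM10 ICAM1 led at 108 ± 1.9 FPKM (SD, n = 2), ahead of CD276 at 74.7 ± 2.8, NT5E at 52.4 ± 1.2, VCAM1 at 42.3 ± 1.2 and CD40 at 33.0 ± 1.4. NT5E, which lay under VCAM1 in the other 3 groups, lay above it here.

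For each of the 9 genes, the 3 tested genes with the closest pattern over the 8 libraries were found by the root mean square distance between log2 values, each gene centred on its own mean. For ICAM1 the nearest were MMP9 and CCL2, at distances of 0.087 and 0.164. For CD40 they were ROBO1, SAMD9 and IKBKE (0.068 to 0.074), for CD274 ADGRG6, DCBLD2 and TGFBR2 (0.076 to 0.1) and for PDCD1LG2 ZP4, KCNMA1 and IGFBP3 (0.085 to 0.113). LGALS9 lay closest to CARD16, CCL3 and TRIM22 (0.140 to 0.187), PVR to CYBRD1, MYOF and AC093724.1 (0.062 to 0.079) and VCAM1 to AC244502.1, ADAMTSL3 and COCH (0.096 to 0.124). NT5E had no gene within 0.14, and INHBA, B3GALT2 and HAPLN1 were its nearest (0.144 to 0.185). Distances are smaller for genes that vary little, as for CD276, whose nearest genes MID1IP1, PDIA3P1 and NIPBL lay at 0.034 to 0.048.

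Other genes of the same pathways were followed as fixed lists. Of 12 other adhesion molecules tested, 7 were called higher and 1 lower in inflamed against normal hIECs, with a median log2 difference of 0.64. Among the 7, CEACAM1 reached the minimum for testing only through the cytokine libraries, so it had to differ here. Over all genes tested, 25.9% were called higher in this comparison, 30.3% lower and 56.2% in either direction. CEACAM1, a homophilic adhesion molecule that is also a ligand of TIM-3, had 0.673 and 0.418 FPKM in normal and 9.06 and 9.35 in inflamed hIECs (log2 difference 2.73, limma adjusted p = 6.88e-07). L1CAM, a neural adhesion molecule, rose by 2.59 and the hyaluronan receptor CD44 by 1.74 on the log2 scale, while the neural adhesion molecule NCAM1 fell by 0.72 (limma adjusted p = 6.15e-08, 2.69e-05 and 6.33e-05). With PM10 in inflamed hIECs 3 of the 12 were called higher and 0 lower, where 6.22% of all genes tested were called higher and 9.02% lower. At an unadjusted p under 0.05, 4 were higher and 1 lower. The 3 were CD44, NCAM1 and L1CAM, with log2 differences of 0.66, 0.36 and 0.29 (limma adjusted p = 0.0156, 0.0116 and 0.0164). Their calls held in 15, 16 and 14 of 18 alternatives. The endothelial adhesion molecules SELE, SELP, PECAM1 and ICAM2 were listed at 0 in all 8 libraries.

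Of 9 other B7, butyrophilin and nectin genes tested, 8 were called higher in inflamed against normal hIECs, with a median log2 difference of 0.60, and 0 were called lower, also at an unadjusted p under 0.05. Among the 8, VSIR would not have reached the minimum for testing without the cytokine libraries. It had 0.867 and 1.04 FPKM in normal hIECs and 0.832 and 0.883 with PM10. BTN3A3, BTN3A2 and BTN3A1, closely related butyrophilins whose reads may be shared, rose by 2.26, 1.81 and 1.60 on the log2 scale (limma adjusted p = 3.68e-06, 3.73e-06 and 5.48e-07). In inflamed hIECs they had 20.1 to 27.5 FPKM. With PM10 in inflamed hIECs 1 of these 9 genes was called, BTN2A2 (log2 difference 0.23, limma adjusted p = 0.0314). This call was lost without any of the 6 libraries outside normal hIECs. Over all genes tested, 15.2% were called with PM10 in inflamed hIECs. The B7 genes CD80, VTCN1 and HHLA2 were listed at 0 in all libraries, CD86 in the 6 libraries with PM10 or cytokines, and ICOSLG in the 6 libraries other than inflamed hIECs with PM10.

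Of 8 other checkpoint and costimulatory ligands tested, 6 were called higher and 0 lower, also at an unadjusted p under 0.05, in inflamed against normal hIECs, with a median of 0.73. HLA-E, which inhibits natural killer cells through NKG2A, rose from 55.3 and 56.0 FPKM to 199 and 190 (log2 difference 1.79, limma adjusted p = 1.08e-07). HLA-G, listed at 0 in 3 of the 4 libraries without cytokines, had 11.6 and 8.42 FPKM in inflamed hIECs and 7.67 and 6.80 with PM10, and reads of related HLA genes may be shared with it. HLA-G is among the 6 and reached the minimum for testing only through the cytokine libraries, so it had to differ with cytokines. The galectin LGALS3 rose with cytokines from 15.3 and 14 FPKM to 37.5 and 39.2 (limma adjusted p = 1.92e-06). It also rose with PM10 in normal hIECs to 26.5 and 27.5 FPKM (0.84, limma adjusted p = 0.0008), a call lost with only those groups in the fit (limma adjusted p = 0.066). In inflamed hIECs its difference with PM10 was 0.07 and not called, and its interaction was -0.77 (limma adjusted p = 0.00359, called in all 17 alternatives).

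**Figure D3:**
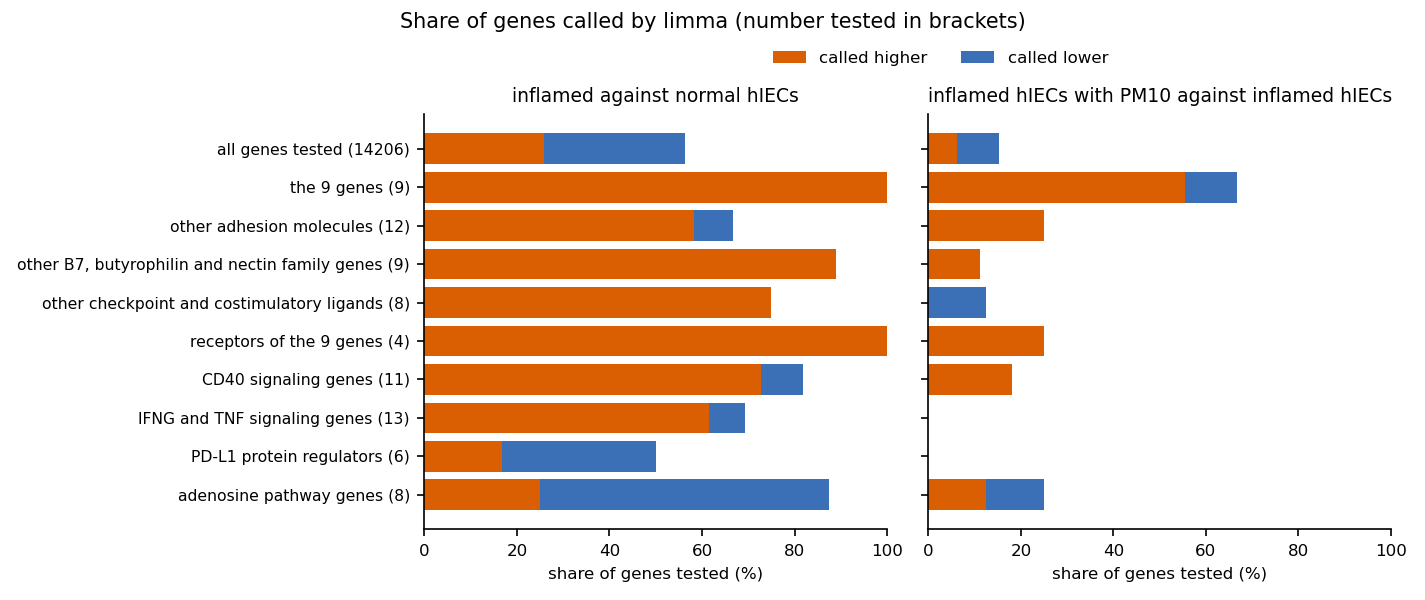
Share of the genes tested (x axis, %) that limma called higher or lower in inflamed against normal hIECs (left) and in inflamed hIECs with PM10 against inflamed hIECs (right), for all 14206 genes tested, the 9 genes and the lists of related genes, with the number tested in brackets. All 9 genes were called higher with cytokines, against 25.9% of all genes tested, and 5 of 9 with PM10 in inflamed hIECs, against 6.22%. Some genes, PDCD1LG2 and LGALS9 among the 9, reached the minimum for testing only through the cytokine libraries.

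Of 14 receptors of the 9 genes' products, 7 were listed at 0 in all libraries, among them CD40LG, PDCD1, CD226, TIGIT, ITGAL and ITGAM, which leukocytes carry. Not all receptors of leukocytes were at 0. CD96 had 0.261 to 0.586 FPKM in the libraries without cytokines and 0 in those with them. HAVCR2 (TIM-3) was listed at 0 in 1 library and reached at most 0.606 FPKM, and ITGB2 was listed at 0 in 4 and reached at most 0.488. The pair ITGA4 and ITGB1, whose products form the receptor of VCAM1, was expressed in every library. ITGA4 had 45.5 and 38.6 FPKM in normal hIECs, 29.7 and 29.4 with PM10, 69.0 and 68.3 in inflamed hIECs and 76.2 and 77.6 in inflamed hIECs with PM10. Its fall with PM10 in normal hIECs was -0.49 (limma adjusted p = 0.0115), lost without the first or second PM10 library and with only those groups in the fit (limma adjusted p up to 0.128). Its interaction was 0.65 (limma adjusted p = 0.0158), lost without any of the 6 libraries outside normal hIECs (limma adjusted p up to 0.0687). ITGB1 had 372 and 373 FPKM in inflamed hIECs and 455 and 468 with PM10 (log2 difference 0.31, limma adjusted p = 0.0389), a call lost in 8 of 18 alternatives, the 6 without a library outside normal hIECs among them (limma adjusted p up to 0.166). For ITGA4 the same comparison gave a log2 difference of 0.16, which was not called (limma adjusted p = 0.179).

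Among CD40 signaling genes, 8 of 11 tested were called higher and 1 lower with cytokines, with a median log2 difference of 1.02. Over all genes tested, 25.9% were called higher and 30.3% lower. Some of the 8, BIRC3 among them, reached the minimum for testing only through the cytokine libraries, so they had to differ here. The feedback inhibitor TNFAIP3 (A20) rose by 2.62 and the NF-κB subunit RELB by 1.68 on the log2 scale (limma adjusted p = 1.28e-07 and 7.38e-07). BIRC3, an inhibitor of apoptosis that binds TRAF2, was listed at 0 in all 4 libraries without cytokines and had 4.05 and 3.92 FPKM in inflamed hIECs and 5.98 and 6.20 with PM10. Of 13 IFNγ and TNFα signaling genes, 8 were called higher and 1 lower with cytokines (median 0.68). Among them IRF1, a transcription factor of the interferon response, had 4.21 and 3.09 FPKM in normal and 81.2 and 81.3 in inflamed hIECs. Between inflamed hIECs with and without PM10 limma called 0 of the 13, of which 2 had an unadjusted p under 0.05, where 15.2% of all genes tested were called. With PM10 in normal hIECs 5 of the 13 were called higher and 0 lower, also at an unadjusted p under 0.05, where 9.23% of all genes tested were called. In inflamed hIECs with PM10, IRF1 had 76.0 and 74.5 FPKM (log2 difference from inflamed hIECs -0.11, limma adjusted p = 0.532). With PM10 in normal hIECs it had 5.61 and 4.94 FPKM and was among the 5 called higher (log2 difference 0.44, limma adjusted p = 0.0488).

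Of 6 tested genes that act on PD-L1 protein, CMTM6, which keeps PD-L1 at the surface, rose with cytokines by 0.47, and HIP1R, which sends it to degradation, fell by 0.95 on the log2 scale (limma adjusted p = 0.00151 and 4.35e-05). The ubiquitin ligase adaptor SPOP fell by 0.34 (limma adjusted p = 0.00116), the other 3 were not called, and the median was 0.01. Over all genes tested, 56.2% were called with cytokines. With PM10 in inflamed hIECs limma called 0 of the 6, of which 3 had an unadjusted p under 0.05. Over all genes tested, 15.2% were called in that comparison.

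Neighbouring genes were examined for CD274 and PDCD1LG2 and for ICAM1. Of 10 tested neighbours of CD274 and PDCD1LG2 on chromosome 9, 5 were called higher and 1 lower with cytokines, with differences between -0.29 and 0.71, below those of CD274 (1.92) and PDCD1LG2 (2.42). The highest was JAK2, a kinase of the IFNγ receptor (0.71, limma adjusted p = 0.000583). Of 11 tested neighbours of ICAM1 on chromosome 19, 2 were called higher and 2 lower, between -0.73 and 0.43. Beside both counts, the share over all genes tested was 25.9% higher, 30.3% lower and 56.2% in either direction.

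NT5E was seen beside the other genes that make, move and sense adenosine. Of 8 tested, 2 were called higher and 5 lower with cytokines, with a median log2 difference of -0.35, in contrast to NT5E. Over all genes tested, 25.9% were called higher and 30.3% lower with cytokines. ENTPD1 (CD39), which makes the AMP that CD73 uses, had 4.70 and 4.24 FPKM in normal hIECs and 2.01 and 2.21 in inflamed hIECs (log2 difference -0.81, limma adjusted p = 0.000112). The adenosine receptor genes ADORA1 and ADORA2B fell by 1.00 and 0.40 on the log2 scale (limma adjusted p = 4.05e-05 and 0.0101), the latter call being lost without the first inflamed library (limma adjusted p = 0.0649). ADA, which breaks adenosine down, had 9.79 and 10.2 FPKM in inflamed hIECs and 7.93 and 6.46 with PM10 (log2 difference -0.43, limma adjusted p = 0.0272), a call lost without either inflamed library or the second inflamed PM10 library and with only those groups in the fit (limma adjusted p up to 0.129).

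SLC29A1, the equilibrative transporter that carries adenosine across the membrane, moved with PM10 in the directions of NT5E. It had 11.6 and 11.3 FPKM in normal hIECs and 8.17 and 7.89 with PM10, and 13.8 and 13.7 in inflamed hIECs and 22.5 and 20.6 with PM10. Its interaction was 1.08 (standard error 0.085, limma adjusted p = 0.00171) and was called in all 17 alternatives. The fall in normal hIECs (-0.46, limma adjusted p = 0.00729) was lost without either PM10 library and with only those groups in the fit (limma adjusted p up to 0.101), as it was for NT5E, and the rise in inflamed hIECs (0.61, limma adjusted p = 0.00137) held in all 18 alternatives.

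**Figure D4:**
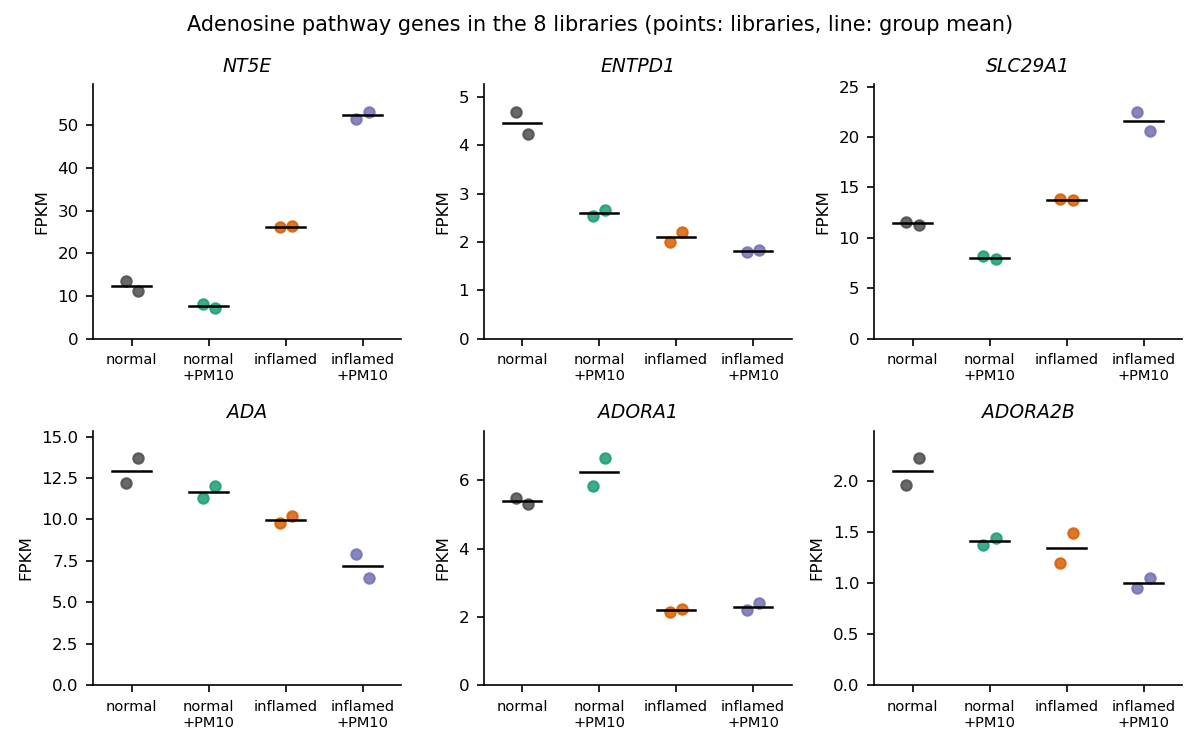
FPKM (linear axis, its own scale in each panel) of NT5E and 5 other adenosine pathway genes in the 4 groups. Points are the 2 libraries of a group and lines are group means. NT5E and SLC29A1 were lowest in normal hIECs with PM10 and highest in inflamed hIECs with PM10, whereas ENTPD1 was highest in normal hIECs.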

How the data were processed

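RNA of the 8 libraries (RIN above 7.5) was sequenced after poly-A selection without strand information. The authors trimmed reads with Cutadapt 3.7 and Sickle 1.33, aligned them to GRCh38 with HISAT2 2.2.1 and computed FPKM values with StringTie 2.2.0, which they deposited per gene and library. The annotation release is not given in the sources used here, and read depth is unknown. Values were used as log2(FPKM + 1) for 14206 genes, those that reached 1 FPKM in 2 or more libraries. PDCD1LG2 and LGALS9 met this minimum through the cytokine libraries only. limma 3.58.1 (R 4.3.3) was fitted to all 8 libraries, letting the spread follow the mean, with p-values adjusted by Benjamini-Hochberg over all genes tested in each of 5 comparisons, and was tested on simulated data. Groups came from the sample labels. Gene positions came from GENCODE on GRCh38 and promoter sequences from RefSeq (GRCh38.p14). Figures were drawn with matplotlib 3.10.9.

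The 9 genes and the lists of related genes were chosen with earlier results of these data known. Besides the 9 genes, up to 4 called genes of each list with the largest change with cytokines, up to 2 in each PM10 comparison and the 3 nearest patterns of each gene could be named, and any other gene was named after its values were seen. Alternatives were pseudocounts of 0.1 and 0.5 FPKM, no filter, a minimum of 5 FPKM, no trend, median centring, quantile normalization, rescaling without mitochondrial genes, only the groups compared, a replicate block, and each library left out in turn. A further gene that the rule would name is not reported here.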

Additional observations from a re-analysis of the deposited data

Results flagged for a closer look

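For 4 of the 9 genes the limma interaction of PM10 and cytokines was called. In log2 units the value was 1.59 for NT5E (limma adjusted p = 0.00171), as its level fell from 12.3 to 7.66 FPKM with PM10 in normal hIECs and rose from 26.2 to 52.4 FPKM in inflamed hIECs, and it was called in all 17 alternatives. PDCD1LG2 had an interaction of 0.78 (limma adjusted p = 0.011), with 0.427 and 0.301 FPKM in normal hIECs without and with PM10 against 6.64 and 11 in inflamed hIECs, and was called in 15 of 17. CD274 had 0.45 (limma adjusted p = 0.0374), with 1.15 and 1.11 FPKM against 7.10 and 9.89, and was called in 8 of 17. VCAM1 had -0.67 (limma adjusted p = 0.0268), with 30.5 and 28.0 FPKM against 73.2 and 42.3, and was called in 11 of 17. The levels of PDCD1LG2 in normal hIECs lie near the lowest value of a library, and depth could not be weighed since read counts are unknown.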

How the results depend on the processing

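Of 801 values of the 9 genes under alternatives, 749 kept their direction and their side of the threshold, 37 lost and 4 gained a call, and 11 turned direction, all 11 from values that were not called. CD40 with PM10 in normal hIECs turned to -0.048 under median centring and -0.065 under quantile normalization, and the LGALS9 interaction turned to 0.031 at a pseudocount of 0.1. With single libraries left out, VCAM1, CD40 and LGALS9 with PM10 in normal hIECs ranged from -0.25 to 0.037, -0.042 to 0.056 and -0.31 to 0.081, CD276 with cytokines under PM10 from -0.14 to 0.022, and the LGALS9 interaction from -0.32 to 0.065.

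Genes called with PM10 in normal hIECs numbered 1311 with 8 libraries, 2032 after rescaling without mitochondrial genes, 23 with only the groups compared, and 194 (without the first PM10 library) to 2627 (without the first normal library) with single libraries left out. Of the 9 genes, 2 were called, 0 with only the groups compared and 1 to 3 with single libraries left out. With PM10 in inflamed hIECs 2165 genes were called, against 675 (without the first inflamed library) to 2992, with 4 to 6 of the 9. The interaction called 937 genes, against 263 (without the first PM10 library) to 1266, and 1 to 4 of the 9, the lowest without the first inflamed or first inflamed PM10 library. The causes were not tested. The fit with only the groups compared could not be made for the interaction. Same-numbered libraries did not deviate together (correlations from -0.002 to 0.079), so no pairing by replicate number was seen. Whether same-numbered libraries were prepared together is unknown. A replicate block gave 1051, 7957, 9264, 1966 and 762 genes and 2, 8, 8, 6 and 3 of the 9 in the order PM10 in normal hIECs, cytokines without PM10, cytokines with PM10, PM10 in inflamed hIECs and interaction.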
